A study of Mus musculus with 21 samples.

Results

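Cd5l, C1qa, C1qb, C1qc, Vcam1, Hmox1, Fcna, Cd163 and Adgre1 are 9 genes best known from tissue macrophages, and they were followed over 7 fractions of cells sorted from mouse bone marrow. They were chosen for their level in KLS, the most immature fraction, so that their height in KLS is given as a description with no test. The rule named the genes and set no threshold. They make up 9 of the 18213 gene symbols that could be assigned to the arrays. All 9 were well above background on the 3 KLS arrays, and 11 probes represented them, since Vcam1 and Adgre1 had 2 probes each. The brighter probe of a gene is reported throughout.

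The cells came from C57BL/6 mice, and each fraction was measured on 3 single-colour arrays, 21 in all. KLS cells were gated as lin- ckit+ sca1+, where the lineage cocktail (lin) held antibodies to B220, CD3, CD4, CD8, CD41, Mac1, Gr1 and Ter119. On the erythroid side the labels give PreMegE as lin- ckit+ sca1+ with CD150 present and CD105 and FGCrI/II absent, CFUe as lin- ckit+ sca1+ with CD150, CD105 and FCGrI/II all absent, and Ter119 as cells carrying CD71 and Ter119. On the myeloid side they give PreGM as lin- ckit+ sca1+ lacking CD150, CD105 and FGCrI/II, GMP as lin- ckit+ sca1+ without CD150 but with FCGrI/II, and Mac1Gr1 as cells carrying both Mac1 and Gr1. As printed, sca1 is positive in all 5 progenitor gates, and CFUe and PreGM share the same gate, so that the labels alone do not set those 2 fractions apart. The lineage antibodies do not include the products of Adgre1, Vcam1 or Cd163. Nothing in the labels says whether the 3 arrays of a fraction came from separate animals or sorts, so p values measure only the spread between these arrays, which may be technical.

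Macrophages of the bone marrow lie at the centre of erythroblastic islands, where they hold developing red cells by adhesion molecules, take up the expelled nuclei and recycle haem iron. They also clear dying cells, a task in which complement C1q and scavenger receptors take part. KLS cells, in contrast, are enriched for haematopoietic stem cells and multipotent progenitors. In RNA from a sorted population, fewer cells of a type and less RNA per cell cannot be told apart.

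The members have different roles. C1qa, C1qb and C1qc encode the 3 chains of C1q, the recognition part of the classical complement pathway, and Fcna encodes ficolin A, a lectin that starts the lectin pathway. Cd5l encodes a secreted protein of macrophages that promotes their survival, and Cd163 the receptor for haptoglobin-bound haemoglobin. Hmox1 encodes haem oxygenase 1, the enzyme that opens the haem ring. Vcam1 encodes an adhesion molecule that binds the integrin made of Itga4 and Itgb1, and Adgre1 encodes the F4/80 antigen. The 3 C1q genes follow each other in the order C1qb, C1qc, C1qa in RefSeq (GRCm38.p6, used for names and neighbours), with 0 protein-coding genes between them.

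RefSeq promoters were available for 5 of the 9 genes. The 250 bases before the start are shown for 4 of them, because their levels moved together or parted in the data that follow: Cd5l tracked the other members most closely and Cd163 least, while the neighbours C1qb and C1qc parted in Ter119 cells. Each is written 5′ to 3′ on the gene's own strand, and capitals mark matches to any of 5 motifs searched on both strands. The motif of the ETS family, to which PU.1 belongs, was searched as GGAAGTG, and a shorter core of the PU.1 motif was searched as GAGGAA. The motif of GATA factors was taken as AGATAAG, the core of the MAF motif was taken as TGCTGA, and the motif of the AP-1 factors was taken as TGANTCA.

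Cd5l, chr3:87357631-87357880, + strand: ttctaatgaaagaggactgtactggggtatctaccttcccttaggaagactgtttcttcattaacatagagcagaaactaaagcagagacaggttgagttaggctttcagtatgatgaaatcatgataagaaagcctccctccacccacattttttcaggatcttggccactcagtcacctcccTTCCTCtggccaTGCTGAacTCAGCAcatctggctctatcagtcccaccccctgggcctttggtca
Cd163, chr6:124304401-124304650, + strand: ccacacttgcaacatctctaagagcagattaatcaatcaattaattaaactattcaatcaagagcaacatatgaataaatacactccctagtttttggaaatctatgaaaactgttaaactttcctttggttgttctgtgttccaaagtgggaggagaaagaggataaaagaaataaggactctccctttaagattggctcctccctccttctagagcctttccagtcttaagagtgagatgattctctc
C1qb, chr4:136886201-136886450, - strand: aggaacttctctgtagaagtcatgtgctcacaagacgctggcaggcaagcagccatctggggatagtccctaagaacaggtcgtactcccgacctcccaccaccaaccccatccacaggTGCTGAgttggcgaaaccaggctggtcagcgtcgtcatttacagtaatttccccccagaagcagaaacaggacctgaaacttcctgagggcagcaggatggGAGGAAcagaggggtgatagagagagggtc
C1qc, chr4:136892915-136893164, - strand: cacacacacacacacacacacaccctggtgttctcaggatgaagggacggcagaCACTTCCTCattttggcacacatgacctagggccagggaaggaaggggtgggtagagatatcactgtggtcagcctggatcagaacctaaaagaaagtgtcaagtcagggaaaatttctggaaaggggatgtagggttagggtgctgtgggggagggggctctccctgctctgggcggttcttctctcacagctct

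The ETS motif and the PU.1 core can share letters, as can the MAF core and the AP-1 motif, and in C1qc a match to the ETS motif between 196 and 190 bases before the start overlapped 1 to the PU.1 core between 193 and 188. The Cd5l window held the MAF core on both strands (54 to 49 and 46 to 41 bases before the start) and the PU.1 core on the opposite strand (66 to 61). The C1qb window held the MAF core (131 to 126) and the PU.1 core (30 to 25), and the Cd163 window held none of the 5. The Fcna window, not printed, held 6 matches, of which 3 were to the PU.1 core, 2 to the MAF core and 1 to the ETS motif. Of the 32851 mouse promoters of the same length, 23.3% held the PU.1 core, 16.1% the MAF core, 8.55% the ETS motif, 6.75% the AP-1 motif and 2.74% the GATA motif. A match is a description of these letters and not a bound site.

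Levels are log2 intensities relative to the 75th percentile of the same array, so that 0 is that percentile and a difference of 1 is 2-fold. They compare a gene between fractions, not 1 gene with another. Between 56.4% and 77.4% of probes were well above background per array, and no spot was saturated. Before the members are described, 2 features of the arrays bear on them. KLS, PreMegE and Ter119 arrays carried Y-linked transcripts, GMP and Mac1Gr1 arrays carried Xist instead, and CFUe and PreGM held both kinds: replicate 3 of each was Y-positive and the other 2 arrays were Xist-positive. Neutrophil markers were also highest on replicate 3 in CFUe and PreGM (mean of 8 markers 0.04 and 2.10), against -2.39 and -0.18 on the lowest arrays. Ter119 cells carried neutrophil and B cell transcripts at means of 7.66 and 2.03, against 7.66 and 0.34 in Mac1Gr1. The part of these features in the members' changes was not tested beyond a fit with a term for the sex-chromosome transcripts, whose counts stand with each result where they moved. Of the genes of the KLS gate, Ly6a (Sca1) read 2.64, 2.38 and 2.70 on the KLS arrays, above the means of PreMegE (-3.14), CFUe (-5.81), PreGM (-0.31) and GMP (2.10) and below those of Ter119 (3.74) and Mac1Gr1 (5.38), and no probe was assigned to Kit. The stem cell genes Procr (2.82, 2.70 and 2.84) and Hlf (4.09, 4.13 and 4.22) were highest in KLS. Itgam, the gene of the lineage antigen Mac1, read -1.81, -1.54 and -2.34 in KLS, near PreGM (mean -1.65), above PreMegE (-5.16) and below Mac1Gr1 (5.16).

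All 9 genes were higher in KLS than in PreMegE, CFUe and PreGM without overlap of arrays. Of all probes tested, 18.2%, 27% and 18.6% were so. By mean, Ter119 and Mac1Gr1 also lay above CFUe for each gene, except Cd163 in Ter119 (-2.50 against -2.46). Cd5l read 4.12, 3.29 and 2.65 on KLS replicates 1, 2 and 3. In PreMegE it read -2.47, -2.94 and -4.85, in CFUe -4.89, -4.02 and -3.31, and in PreGM -3.36, -3.36 and -2.67. Thus all 3 KLS arrays lay far above the 9 arrays of those fractions, which overlapped among themselves. Its level was intermediate in GMP (-1.45, -1.43 and -0.80), Ter119 (-0.33, -0.60 and -0.69) and Mac1Gr1 (1.06, 1.37 and 1.61), and these 3 fractions did not overlap with each other.

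Among the complement genes, C1qc read 3.49, 2.56 and 2.03 in KLS, C1qa 2.52, 1.60 and 1.22, and Fcna 3.10, 2.02 and 1.38. Their order of fractions was the same at the top: KLS, then Mac1Gr1, then Ter119, without overlap between neighbours. In Mac1Gr1 the arrays of these 3 genes lay between -0.25 (C1qa) and 1.47 (C1qc), and in Ter119 between -2.32 (Fcna) and -0.48 (C1qc). The other 4 fractions lay lower, with means from -5.95 to -3.70 for C1qc, and no CFUe array was well above background for C1qa or C1qc.

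C1qb departed from its neighbours in Ter119. It read 2.23, 1.39 and 0.99 in KLS, 1.85, 1.47 and 1.85 in Ter119, and 0.14, 0.31 and 0.50 in Mac1Gr1. Ter119 was thus its highest fraction by mean (1.72 ± 0.22, SD, n = 3), overlapping with KLS (1.53 ± 0.63) and above Mac1Gr1 without overlap. The 4 progenitor fractions below KLS all overlapped for C1qb, with means between -2.42 and -2.23, and it was well above background on all of their arrays.

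By the brighter probes, Vcam1 was the 1 member whose KLS and GMP arrays overlapped. By mean, Adgre1 differed less between these fractions (0.83 against 0.91 on the log2 scale). Vcam1 read 4.18, 3.56 and 2.65 in KLS and 2.73, 2.43 and 2.49 in GMP, which overlapped with the lowest KLS array. Mac1Gr1 (1.18, 1.55 and 1.45) and Ter119 (0.12, 0.15 and -0.18) followed without overlap, and PreMegE (-2.30, -2.76 and -3.49) overlapped with PreGM (-3.76, -4.38 and -2.84). CFUe was lowest and not well above background on any array. The second Vcam1 probe was dimmer and kept the same first 2 fractions, at means of -0.03 in KLS and -0.05 in GMP.

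Adgre1 was highest in Mac1Gr1, and with C1qb it was 1 of 2 members whose highest mean was not in KLS. It read 2.98, 3.14 and 2.97 in Mac1Gr1, 1.44, 1.55 and 1.69 in Ter119, and 1.77, 1.0 and 0.32 in KLS. Mac1Gr1 stood above both without overlap, and KLS overlapped with Ter119. GMP (0.23, 0.24 and 0.13), PreGM (-1.65, -1.78 and -1.46) and PreMegE (-4.56, -3.56 and -5.28) then followed in steps without overlap, and CFUe was not well above background. The second Adgre1 probe was dimmer, with 2 KLS arrays well above background, and Mac1Gr1 was again highest. On it Ter119 (-3.70, -4.28 and -3.68) lay above KLS (-4.42, -4.60 and -5.16) without overlap. KLS overlapped there with GMP (-5.26, -4.87 and -4.76).

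The members of haem handling were unlike each other. Hmox1 read 4.48, 3.68 and 3.09 in KLS and 1.82, 1.80 and 1.70 in Ter119, and in the 4 other progenitor fractions its means lay between -1.54 and -0.78. In Mac1Gr1 it read 0.01, 3.63 and 3.65, so that replicate 1 stood apart from the other 2 arrays by more than the whole spread of any other member there. The probe has 1 spot per array, and that spot was not marked as an outlier. Cd163 had the flattest profile: 1.56, 0.46 and -0.09 in KLS, and means between -2.80 (GMP) and -1.11 (PreGM) in the other fractions, of which all neighbours in order overlapped. It was the one member whose second fraction was PreGM (-1.2, -1.21 and -0.93).

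**Figure D1:**
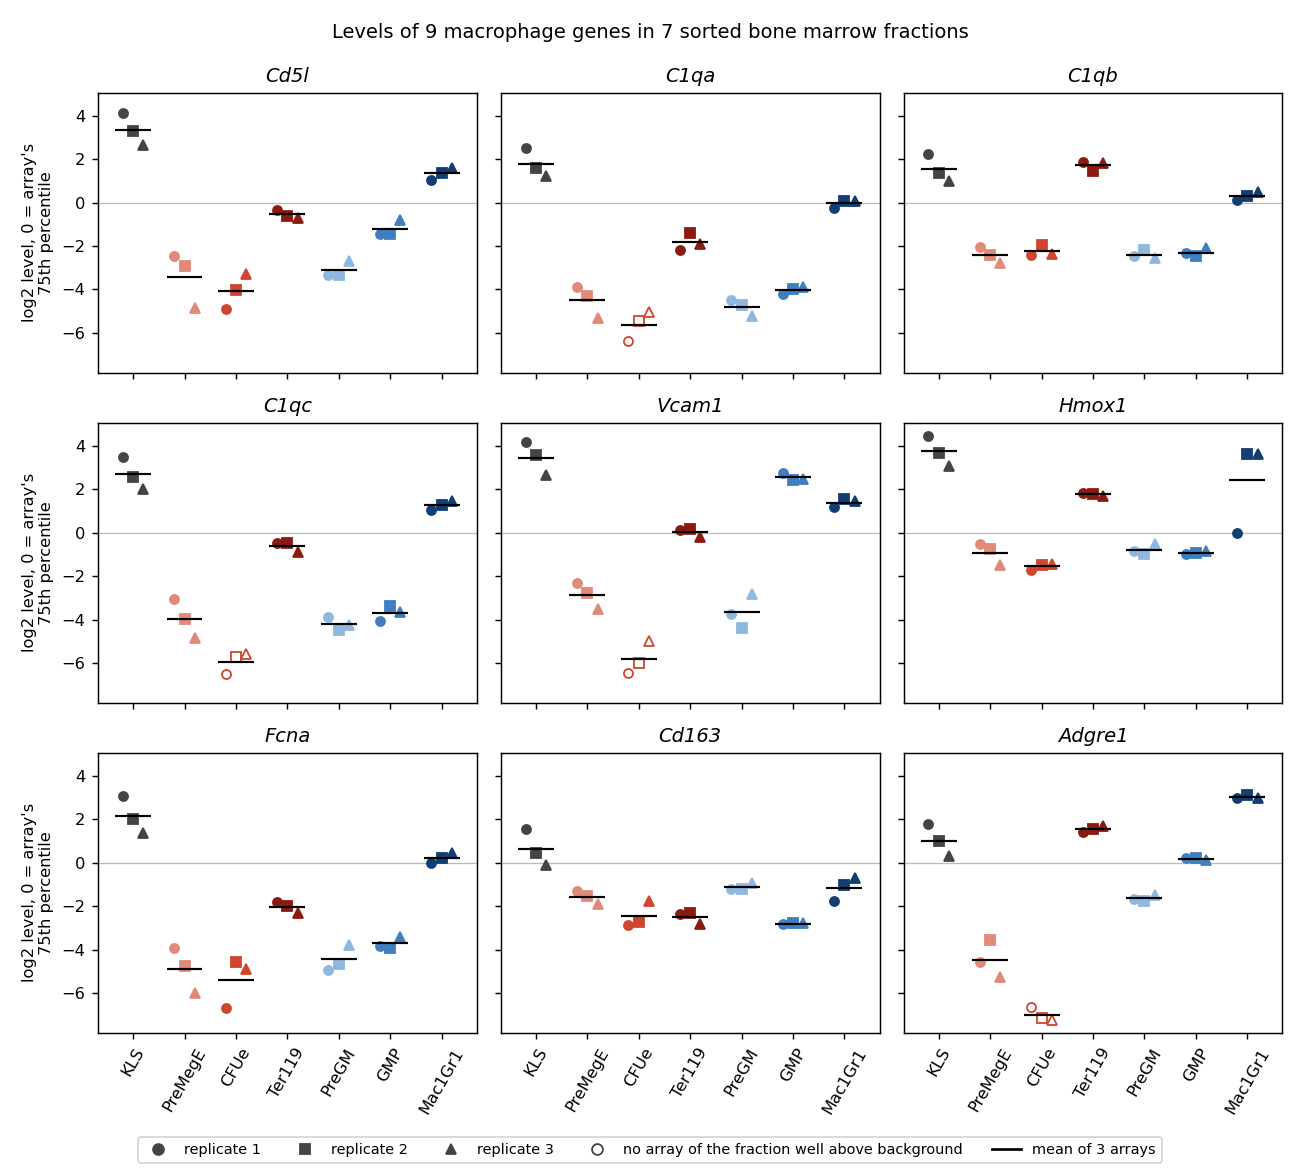
Level of each gene on each of the 21 arrays, as log2 intensity relative to the array's 75th percentile (vertical axis), by fraction (horizontal axis). Symbols are replicates, bars are means of 3 arrays and open symbols are fractions with no array well above background. KLS is highest for 7 genes, Ter119 for C1qb (mean 1.72) and Mac1Gr1 for Adgre1 (mean 3.03).

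Set against KLS as a description, the median difference over the 9 genes (KLS minus the fraction, log2) was 6.27 for PreMegE (range 2.21 to 7.05), 7.42 for CFUe (3.10 to 9.29) and 6.48 for PreGM (1.76 to 7.12). It was 4.58 for GMP (0.83 to 6.40), 3.31 for Ter119 (-0.53 to 4.20) and 1.79 for Mac1Gr1 (-2.0 to 2.07). All 3 KLS arrays exceeded all arrays of PreMegE, CFUe and PreGM for 9 of 9 genes, where 18.2%, 27% and 18.6% of all probes tested did so. The count was 8 for GMP (26.1% of probes), 7 for Ter119 (39.6%) and 7 for Mac1Gr1 (38.6%), and Adgre1 lay below Mac1Gr1 without overlap (41% of probes). The members were chosen on these contrasts, and nothing is read from the counts. The median was largest against CFUe, where 4 genes give only a bound: Vcam1 was at least 319-fold higher in KLS, C1qc at least 189-fold, C1qa at least 100.1-fold and Adgre1 at least 59.5-fold. On the slides that held a KLS array beside another fraction, all 9 genes were higher in KLS than in CFUe (1 slide, median 7.57) and GMP (1 slide, median 4.04), and 8 of 9 were higher than in Mac1Gr1 on each of 2 slides (medians 3.0 and 1.47), Adgre1 being the exception. No slide held KLS beside PreMegE, PreGM or Ter119, so there is no within-slide value for these. KLS arrays carried Y-linked transcripts, and GMP and Mac1Gr1 arrays Xist. The differences of KLS from GMP and Mac1Gr1 therefore cannot be told apart from that contrast.

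The 3 KLS arrays did not agree on how much of these transcripts they held. For 9 of 9 members replicate 1 was the highest and replicate 3 the lowest, with 1.24 (C1qb) to 1.72 (Fcna) between them on the log2 scale, a median of 1.47. Replicate 1 therefore carried more than 2-fold the level of replicate 3 for each of them. Of all probes tested, 2.64% showed this order with a difference of at least 2-fold, and the median range over the 3 KLS arrays was 0.40. The order was seen for 9 of 9 members under quantile scaling (1.42 to 1.96), spike-in scaling (1.68 to 2.17), normexp background correction (1.19 to 1.72) and in the series table (1.43 to 1.98).

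Other macrophage genes shared the order in part, and how far other lists did depended on the scaling. Of the 41 genes tested on 4 lists of macrophage genes (surface and uptake receptors, transcription factors, haem and iron handling, lysosome and lipid), 24 had replicate 1 highest and replicate 3 lowest, and 15 of them by at least 2-fold. The median difference was 1.1 for the 13 receptors, 1.08 for the 7 transcription factors, 0.64 for the 11 lysosomal and lipid genes and 0.45 for the 10 haem and iron genes. It was -0.06 for the 7 stem and progenitor markers tested, of which 0 had that order, and -0.18 for the 4 monocyte markers, again with 0. B cell, T and NK cell, erythroid and stromal markers had 0 genes in that order, neutrophil markers 1 of 8, endothelial markers 2 of 6 and dendritic cell markers 1 of 3, none by 2-fold, and complement genes 5 of 13, 2 of them by 2-fold. Under spike-in scaling, which raised the share of all probes in this order from 13.8% to 27.9%, 3 of 7 stem and progenitor markers had it (median 0.38), as did 3 of 4 monocyte, 4 of 8 neutrophil, 2 of 6 B cell, 1 of 5 T and NK cell, 2 of 5 erythroid and 1 of 3 stromal markers, again none by 2-fold, while 1 of 6 endothelial and 1 of 3 dendritic cell markers had it by 2-fold. The mean over the members was 3.05 on KLS replicate 1 and 1.58 on replicate 3, that over the other macrophage genes 0.86 and 0.06, and that over the stem and progenitor markers 1.31 and 1.39. The part of the arrays' macrophage transcripts in the members' level was not tested.

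**Figure D2:**
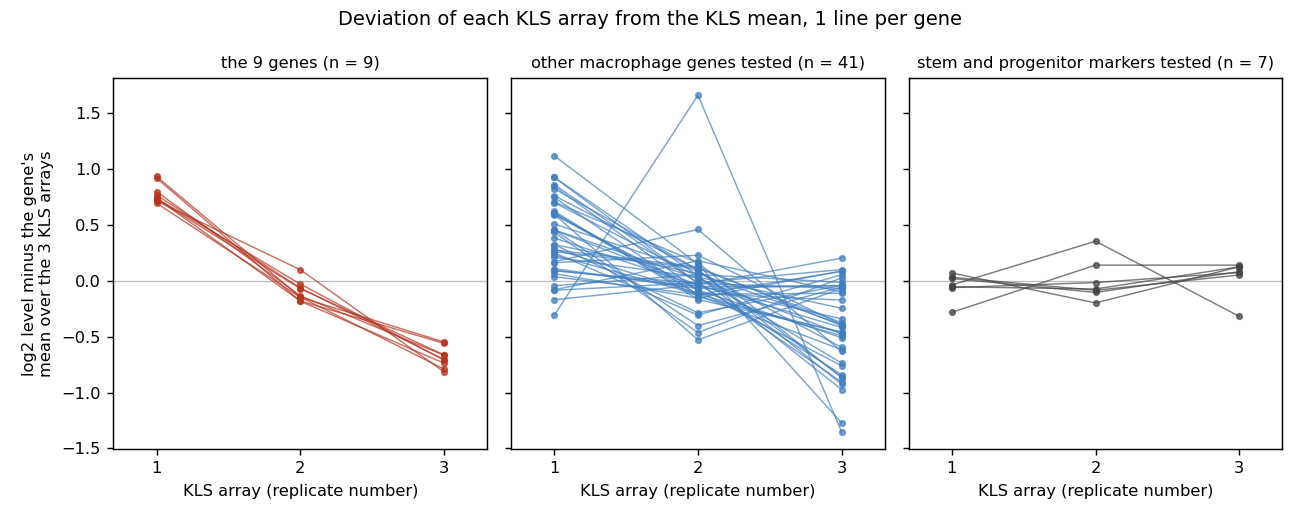
Log2 level on each KLS array minus the gene's mean over the 3 KLS arrays (vertical axis), by replicate number (horizontal axis), with 1 line per gene. The 9 genes fall together, with 1.24 to 1.72 between replicates 1 and 3, the 41 other macrophage genes spread from this pattern to none, and the 7 stem and progenitor markers stay near 0 on this scale (75th percentile), with a median of 0.38 between replicates 1 and 3 under spike-in scaling.

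In PreMegE a like spread was seen at low levels: replicate 1 was highest and replicate 3 lowest for 8 of 9 members, where 23.6% of all probes tested had that order, and the median range was 1.42. Adgre1 was the exception, with replicate 2 highest. In CFUe replicate 3 was highest and replicate 1 lowest for 6 members, where 26.7% of all probes tested had that order (median range 1.1), and that array also had the highest neutrophil markers. The members varied less in Ter119 (median range 0.38), GMP (0.32) and Mac1Gr1 (0.42), apart from Hmox1 in Mac1Gr1 (3.64). In PreGM their median range was 0.58, and the highest was 1.54 (Vcam1). Over all probes tested the median range was 0.37 in PreMegE, 0.47 in CFUe and 0.43 in Ter119. It was 0.35 in PreGM, 0.31 in GMP and 0.35 in Mac1Gr1.

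Comparisons without KLS were tested, since the rule chose the genes for their level in KLS. Earlier results of these data were known at that choice, so the tests may not be independent of it. A change is called at a limma adjusted p under 0.05 over all probes tested and at least 2-fold. At the first split, PreMegE against PreGM, 1 of 9 members was called, where 12% of all probes tested were (5.81% higher and 6.23% lower). Adgre1 was lower in PreMegE by 2.84 ± 0.35 (SE; adjusted p 9.36e-06), with no overlap between the 6 arrays. The other 8 lay between -0.45 (Cd163) and 0.81 (Vcam1) with adjusted p from 0.191 to 0.963. On the 2 slides that held both fractions, the median of the 9 differences was 0.07 and -0.93, and Adgre1 differed by -1.92 and -3.82.

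From PreGM to GMP, 4 members were called, 3 higher and 1 lower, against 10.4% of probes (4.01% higher and 6.36% lower). Vcam1 rose by 6.21 ± 0.43 (adjusted p 2.15e-08), from arrays between -4.38 and -2.84 to arrays between 2.43 and 2.73, a 74.1-fold difference. Its second probe, not well above background in PreGM, gave a measured 5.51. Cd5l rose by 1.90 ± 0.51 (adjusted p 0.0109) and Adgre1 by 1.83 ± 0.35 (adjusted p 0.000885), while Cd163 fell by 1.69 ± 0.36 (adjusted p 0.00217). The C1q genes (0.09 to 0.79), Fcna (0.73) and Hmox1 (-0.14) were not called. Scaled to the spike-in probes, which raised the median of all probes to 0.99, 7 members were called and all were higher: C1qa (1.81), C1qb (1.11), C1qc (1.51) and Fcna (1.75) were gained, and the fall of Cd163 lost its call (-0.67, adjusted p 0.113). When slide was added to the fit, 2 members were called, Vcam1 and Adgre1, and on the 1 slide with both fractions Vcam1 differed by 6.49.

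From PreMegE to CFUe, 4 members were lower, where 24.7% of probes were called (14.7% lower and 9.96% higher); a fit with the sex-chromosome term called 3. Vcam1 fell at least 4.01-fold (adjusted p 2.02e-05), C1qc at least 1.87-fold (adjusted p 0.000525), Adgre1 at least 1.32-fold (adjusted p 1.16e-05) and C1qa at least 1.30-fold (adjusted p 0.0208). The bounds hold because in CFUe none of the 4 passed the background flag, so the measured changes (-2.97, -1.99, -2.54 and -1.15) include a reading that is itself only a bound. Under normexp background correction 0 of them were called, and the dimmer Adgre1 probe, below background in both fractions, read 0.67 in the other direction. Cd163 differed by -0.89 (adjusted p 0.0490, under 2-fold), and C1qb, at 0.19, was the nearest to no difference.

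At the terminal erythroid step, Ter119 against CFUe, 8 members were higher, where 57.2% of probes were called (29.2% higher and 28% lower). Adgre1 was at least 86.2-fold higher (adjusted p 7.65e-13), Vcam1 at least 29.5-fold, C1qc at least 19.1-fold and C1qa at least 8.20-fold. C1qb rose by 3.95 ± 0.26 (adjusted p 2.76e-10), Cd5l by 3.53 ± 0.51, Fcna by 3.36 ± 0.56 and Hmox1 by 3.31 ± 0.66. Cd163 read -2.87, -2.74 and -1.77 in CFUe and -2.37, -2.33 and -2.81 in Ter119, a difference of -0.04 ± 0.36 (adjusted p 0.919), which was called lower under spike-in scaling (-1.42, adjusted p 0.00178). On the 1 slide with both fractions the same 8 genes differed by 3.40 to 8.32 and Cd163 by 0.06. In the same comparison 27 of the 41 other macrophage genes, 8 of 8 neutrophil, 6 of 6 B cell and 4 of 4 monocyte markers were also higher in Ter119, and their part in the members' change was not tested.

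From GMP to Mac1Gr1 all 9 members were called, 8 higher and 1 lower, where 56.7% of probes were (29.1% higher and 27.6% lower). C1qc rose by 4.96 ± 0.40 (adjusted p 5.33e-09), C1qa by 3.98 ± 0.39, Fcna by 3.94 ± 0.56, Adgre1 by 2.83 ± 0.35, C1qb by 2.62 ± 0.26, Cd5l by 2.57 ± 0.51 and Cd163 by 1.65 ± 0.36. Hmox1 rose by 3.35 ± 0.66 (adjusted p 0.000191), with 2 of 3 Mac1Gr1 arrays well above GMP and replicate 1 less than 2-fold above it. Vcam1 moved the other way, by -1.16 ± 0.43 (adjusted p 0.0224), a call lost without GMP replicate 1 (-1.07) or Mac1Gr1 replicate 1 (-1.05). Scaling to the spike-in probes lowered the median of all probes from 0.17 to -1.86. Under it 4 members were called and Cd163 turned to -0.38, so that these rises are relative to the bulk of transcripts on each array. No slide held both fractions, so there is no within-slide value. In the same comparison 28 of the 41 other macrophage genes, 6 of 6 B cell and 6 of 8 neutrophil markers were also higher in Mac1Gr1. Of the 4 monocyte markers 0 were called higher and 1 lower. The part of these genes in the members' change was not tested.

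Between the mature fractions 8 members were called, where 41.9% of probes were (22% higher in Ter119 and 19.9% lower). C1qb was higher in Ter119 by 1.41 ± 0.26 (adjusted p 0.000131), and 7 members were lower: Fcna by -2.26, Cd5l by -1.89, C1qc by -1.87, C1qa by -1.80, Adgre1 by -1.46, Vcam1 by -1.36 and Cd163 by -1.36. Hmox1 was not called (-0.65 ± 0.66, adjusted p 0.392), and without Mac1Gr1 replicate 1 it was (-1.86, adjusted p 7.9e-05). When slide was added to the fit, C1qb was the 1 member called. No slide held both fractions, so there is no within-slide value. Ter119 arrays carried Y-linked transcripts and Mac1Gr1 arrays Xist, so this contrast cannot be told apart from that between the fractions. Scaled to the spike-in probes C1qb differed by 0.68, under 2-fold.

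**Figure D3:**
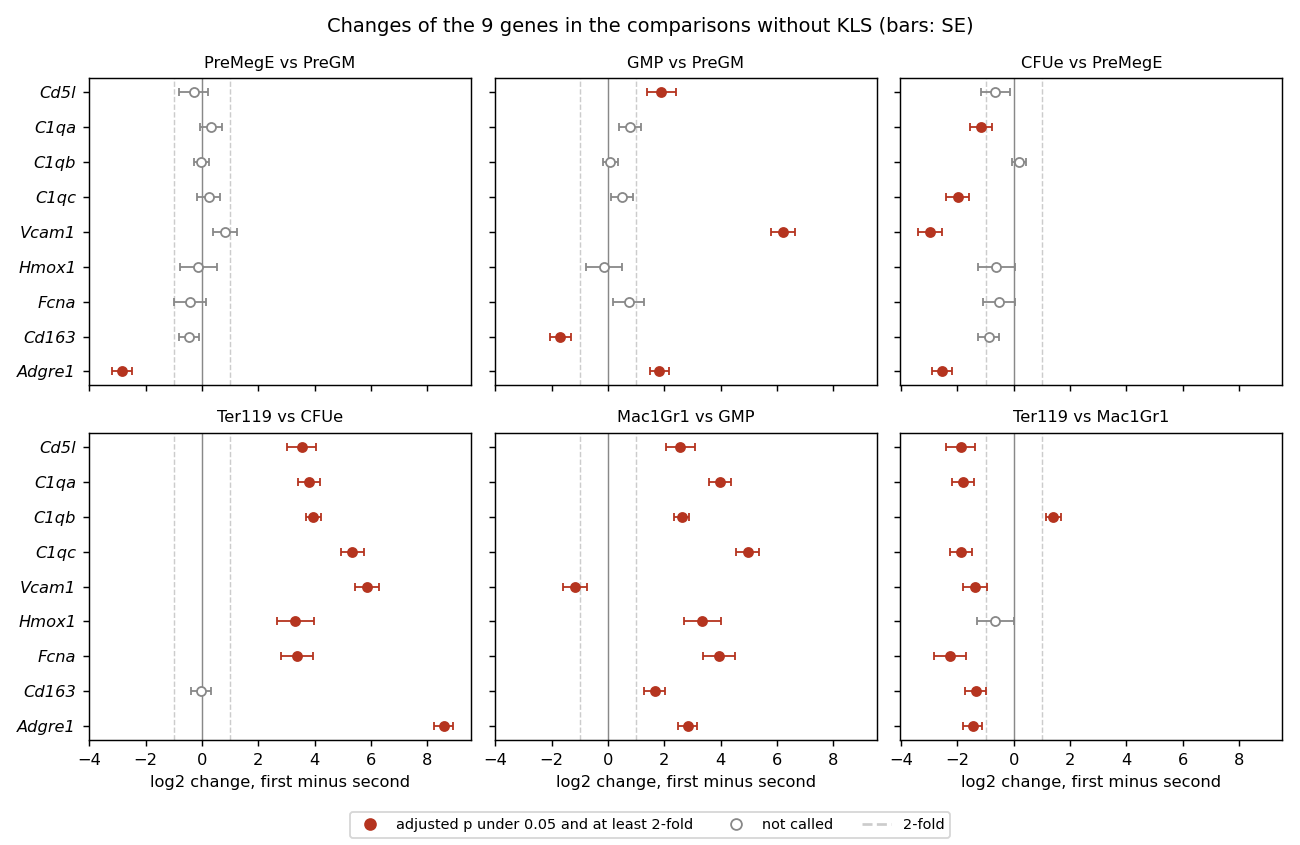
Log2 change of each gene (horizontal axis, first fraction minus second) with its SE in the 6 comparisons without KLS, 1 panel each. Filled points are called changes and dashed lines mark 2-fold. For C1qa, C1qc, Vcam1 and Adgre1 no CFUe array was well above background, so changes that involve CFUe are bounds. The largest change within measured levels is that of Vcam1 from PreGM to GMP (6.21).

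Whether a step changed a gene differently in the lineages was tested as the myeloid minus the erythroid change. At the second step (PreGM to GMP against PreMegE to CFUe) the difference passed an adjusted p under 0.05 for 5 members, where 34.2% of probes did. It was 9.18 ± 0.61 for Vcam1 (adjusted p 9.38e-09), 4.37 for Adgre1, 2.55 for Cd5l, 2.49 for C1qc and 1.94 for C1qa. At the terminal step 4 members passed, where 55% of probes did. Adgre1 (-5.75) and C1qb (-1.33) rose more on the erythroid side. Vcam1 (-7.01) rose on the erythroid side and fell on the myeloid side. Cd163 (1.70) rose on the myeloid side, against -0.04 on the erythroid side. Under normexp background correction the differences of C1qa (0.015, adjusted p 0.972) and C1qc (0.41, adjusted p 0.393) no longer passed, and under spike-in scaling that of Cd163 did not (1.05, adjusted p 0.129). These 2 steps share the CFUe and GMP arrays, and apart from Cd5l, C1qb and Cd163 the differences include a CFUe level not well above background.

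Genes of macrophages other than the members were then compared with KLS. Of 45 genes on the 4 lists, 43 had a probe and 41 were tested. From KLS to PreMegE 30 were called, 27 of them lower, where 12.4% of probes were called (3.55% higher and 8.86% lower), and from KLS to PreGM 18 were called, 15 of them lower, where 8.64% of probes were (2.11% higher and 6.53% lower). The median change over the 41 genes was -2.10 and -0.48, against 0.13 and 0.06 over all probes tested. These comparisons share the KLS arrays, for whose level the members were chosen. The lists were chosen with earlier results of these data known, so the counts give no independent evidence about the members.

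Among the receptors 11 of 13 were lower in PreMegE and 7 in PreGM. Mrc1, the mannose receptor, was at least 58.4-fold lower in PreMegE and at least 47.1-fold lower in PreGM, and Mertk, a receptor for dying cells, at least 21.2-fold and 17.7-fold. Fcgr1, the high-affinity receptor for IgG, differed by -5.34 and -3.87, and Axl, another receptor for dying cells, by -3.89 and -5.36. Csf1r, the receptor for the macrophage growth factor, which like Spi1, Nfe2l2, Siglec1 and Msr1 was chosen after the values were seen, went both ways, lower in PreMegE (-3.89) and higher in PreGM (2.03). Not all receptors on the list were high in KLS: Siglec1 read -3.82, -3.53 and -4.62 and Msr1 was well above background on 1 of 3 KLS arrays.

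All 7 transcription factors were lower in PreMegE and 4 in PreGM. Maf was at least 18.1-fold lower in PreMegE and differed by -3.44 in PreGM. Spic, known from the iron-recycling macrophages of the spleen, differed by -3.12 and -4.00. Irf8 (-3.57 and 2.65) and Spi1 (-1.43 and 1.24), which are also factors of granulocyte and monocyte progenitors, were lower in PreMegE and higher in PreGM.

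Haem and iron genes were mixed. Slc11a1, a metal transporter of the phagosome, was at least 44.5-fold lower in PreMegE and differed by -5.09 in PreGM, and the iron exporter Slc40a1 differed by -2.75 and -5.81. Trf, which encodes transferrin, was lower in PreMegE (-3.0) and read -0.11 in PreGM, and Blvrb (1.98) and Nfe2l2 (1.18) were higher in PreMegE, while 5 of the 10 genes were called in neither. Among lysosomal and lipid genes the protease genes Lgmn (-6.60 and -2.66) and Ctss (-6.56 in PreMegE) and the perforin-like Mpeg1 (-4.60 in PreMegE) were lower, and Apoe was higher in PreMegE (2.48). Of the rest of the complement system, 6 of 13 genes were lower in PreMegE and 3 in PreGM, C1ra by -4.00 and -1.59, and Cfp, the gene of properdin, and Itgam by -3.64 and -3.27 in PreMegE.

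**Figure D4:**
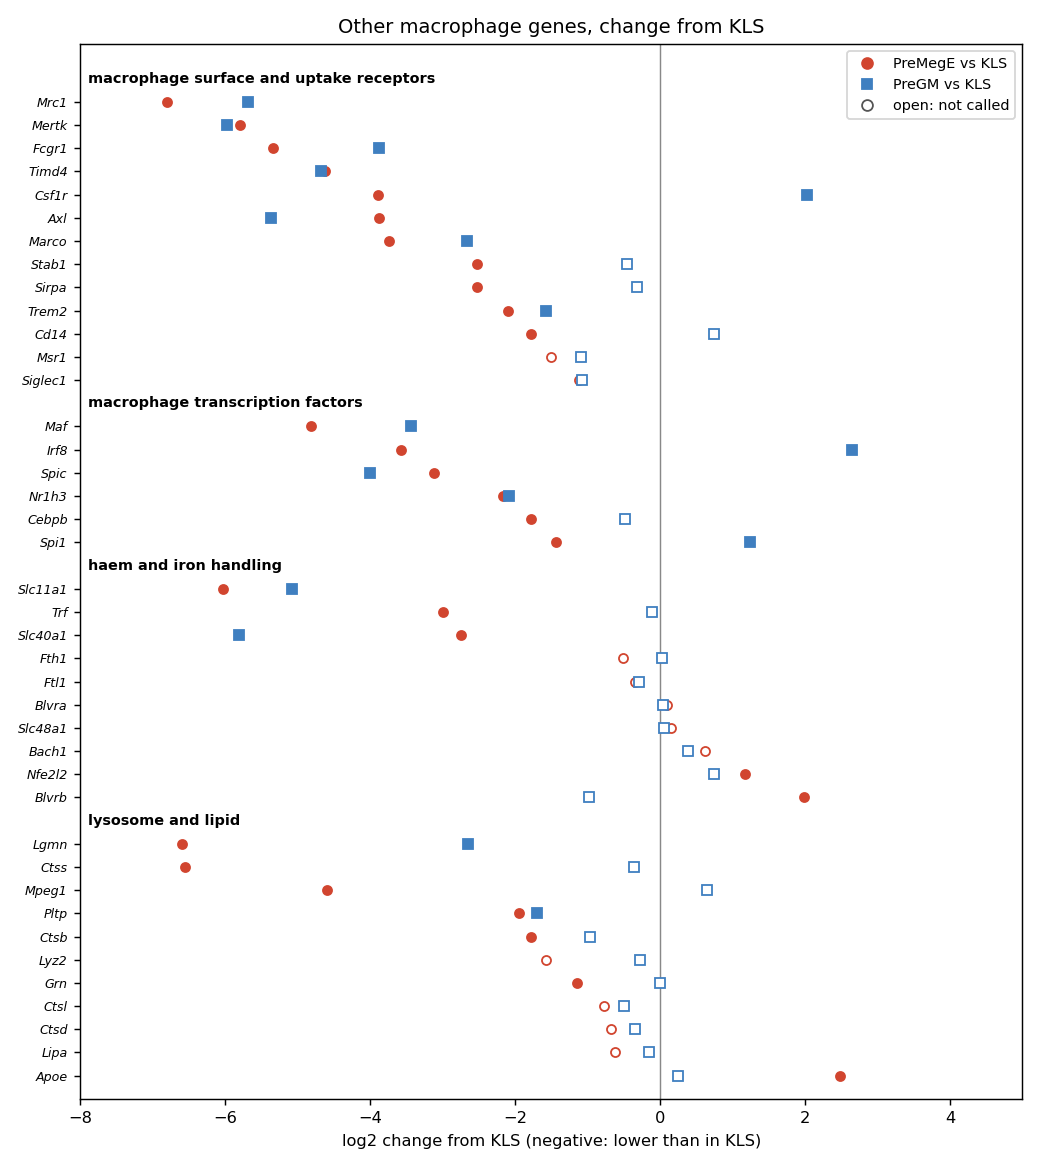
Log2 change from KLS (horizontal axis) of 40 of the 41 other macrophage genes tested, by list, in PreMegE (circles) and PreGM (squares). Filled symbols are called changes. Over all 41 genes 27 were lower in PreMegE and 15 in PreGM, and Csf1r, Irf8 and Spi1 lie on opposite sides of 0.

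Markers of other cell types were set beside the members in KLS. Endothelial markers, whose cells can also express Vcam1, had means between -1.97 and -1.69 on the 3 KLS arrays, with 5 of 6 genes well above background, and stromal markers between -3.88 and -3.27 with 3 of 6. Of the 6 endothelial markers, 2 were called lower and 1 higher in PreMegE than in KLS, and 3 lower and 0 higher in PreGM. Monocyte markers lay between -0.81 and -0.65. In PreGM 3 of 4 were higher than in KLS, the reverse of the members (Ccr2 by 4.06, F13a1 by 4.84 and Cx3cr1 by 3.16). In PreMegE 2 of 4 monocyte markers were lower than in KLS and 0 higher, the direction of the members. Dendritic cell markers lay between -5.98 and -5.04, with 3 of 4 genes well above background on no KLS array. The part of any of these in the members' level was not tested. Among the partners of VCAM1, Itga4 was higher in PreMegE than in KLS (1.41) and Itga9 lower in PreMegE and PreGM (-2.53 and -1.55).

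The members resembled each other to different degrees over the 21 arrays. The correlation of a member with the mean of the other 8 was 0.98 for Cd5l and C1qc, 0.97 for C1qa and Fcna, 0.92 for Hmox1, 0.83 for C1qb, 0.82 for Vcam1, 0.80 for Adgre1 and 0.58 for Cd163. The lowest pairwise value was 0.29, between Cd163 and Adgre1. Of 14273 other genes, the 10 closest to the mean of the members included Mrc1 (Pearson r 0.98), Igf1 (0.96), Slco2b1 (0.95), Ubd (0.95), Kcnj10 (0.95), Cd209f (0.95), Cbr2 (0.94), Ms4a7 (0.94) and Fcgr1 (0.92). Among the 100 closest were 11 of the 41 other macrophage genes. The 21 arrays include those of KLS, for whose level the members were chosen, so a shared height in KLS is part of these values. The arrays of a fraction are not independent points, and the values describe likeness of pattern only.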

How the data were processed

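Total RNA of 7 sorted fractions, 3 arrays each, was labelled with Cy3 and hybridised to Agilent mouse arrays. The deposited scanner files hold intensity values from Agilent Feature Extraction 10.7.1.1, background-corrected within each array by that program (its settings are not given in the sources used here), and the deposited series table holds the authors' normalized log2 values, used only as an alternative. Control and outlier spots were left out, spots of a probe averaged, and log2 intensity set relative to each array's 75th percentile. Of 41174 probes, 29533 passed the filter on dim probes. A single limma model (limma 3.58.1, R 4.3.3) was fitted over all 21 arrays, with Benjamini-Hochberg adjustment over all probes tested. Python 3.11.15, pandas 2.3.3 and matplotlib 3.10.9 did the rest. On simulated data for Ter119 against CFUe, 167 of 200 probes changed by 2 on the log2 scale were recovered and 6 unchanged ones called.

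Members and gene lists were chosen with earlier results of these data known. All 9 members are named, with up to 4 called genes a list (those with the largest change) and the 10 genes closest in pattern, of which 1, also on a list, is not reported here. Symbols were assigned through RefSeq accessions for 64.8% of probes. A level is well above background as the scanner software flags it; where no array of a group was, folds are bounds against the lowest signal well above background. The number of arrays limits the precision. Alternatives were other scalings (quantile, spike-in), normexp background correction, the series table, no dim filter, only the compared fractions, slide, replicate or sex-chromosome blocks, the second probe and leaving out each array.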

Additional observations from a re-analysis of the deposited data

Results flagged for a closer look

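For 9 results the change differed between the lineages by a test of the difference itself (limma, adjusted over all probes tested). Of all probes tested, 34.2% passed at the second step and 55% at the terminal step, so nothing is read from the number of members that passed. At the second step, myeloid minus erythroid, Vcam1 differed by 9.18 (adjusted p 9.38e-09), Adgre1 by 4.37 (3.39e-06), Cd5l by 2.55 (0.0115), C1qc by 2.49 (0.00266) and C1qa by 1.94 (0.0114). At the terminal step Vcam1 differed by -7.01 (6.01e-08), Adgre1 by -5.75 (5.27e-08), C1qb by -1.33 (0.00492) and Cd163 by 1.70 (0.00963). No CFUe array was well above background for Vcam1, Adgre1, C1qc or C1qa, so the sizes of their differences include a reading that is only a bound. Under normexp background correction the second-step differences of C1qa (0.015, adjusted p 0.972) and C1qc (0.41, adjusted p 0.393) were lost, and under spike-in scaling that of Cd163 (1.05, adjusted p 0.129). Single arrays were not tested for distance from the others of a fraction, and Hmox1 on Mac1Gr1 replicate 1 (0.01 against 3.63 and 3.65) is given as a value.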

How the results depend on the processing

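Of 555 alternative values for the 34 called changes, 523 kept direction and call, 30 lost the call and 2 reversed. Counts of members called moved by over 1.5 times in GMP against PreGM under spike-in scaling (7, all higher, with Cd163 no longer called) and the slide block (2), in Mac1Gr1 against GMP under spike-in scaling (4), in CFUe against PreMegE under normexp (0) and in Ter119 against Mac1Gr1 under the slide block (1). Reversed values were Cd163 in Mac1Gr1 against GMP under spike-in scaling (-0.38) and Adgre1 in CFUe against PreMegE with its other probe (0.67); the uncalled Cd163 in Ter119 against CFUe turned to 0.29 under normexp, 0.17 under the slide block, 0.30 without CFUe replicate 3 and 0.11 without Ter119 replicate 3 (range over arrays left out -0.25 to 0.30), and fell to -0.67 under quantile scaling, -0.77 in the series table and -1.42 (called, adjusted p 0.00178) under spike-in scaling. Of the 9 lineage differences, whose alternatives (4 scalings or corrections) were chosen after seeing the data, 3 lost their call: C1qa (0.015) and C1qc (0.41) under normexp and Cd163 (1.05) under spike-in scaling. The cause was not tested. Leaving out 1 array gave 3 to 6 calls for CFUe against PreMegE (6 without PreMegE replicate 3; 3 without PreMegE replicate 1 or 2 or CFUe replicate 1), 4 for GMP against PreGM, 8 to 9 for Mac1Gr1 against GMP, 1 for PreMegE against PreGM, 8 for Ter119 against CFUe, 8 to 9 for Ter119 against Mac1Gr1, and for the other macrophage genes 17 to 21 in PreGM and 30 in PreMegE against KLS. With the replicate number as a block the counts were 4, 4, 9, 1, 8, 8, 18 and 30, as without it. Arrays of the same number had deviations correlated between -0.43 and 0.37, and 7 of 21 arrays correlated best with their own number. Whether arrays of the same number shared an animal or a sort cannot be told from these values. Under spike-in scaling the median of all probes lay between -1.86 (Mac1Gr1 against GMP) and 0.99 (GMP against PreGM). Signal over background limits C1qa, C1qc, Vcam1 and Adgre1 in CFUe.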
